A study of Mus musculus with 16 samples.

Results

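Livers of 4 mice labelled AKR1B10 knockdown (KD 1 to KD 4) were compared with livers of 4 mice labelled negative control (NC 1 to NC 4), all without berberine, across every gene expressed in the series. The comparison uses 8 of 16 libraries, and 10846 of 55401 genes in the table reached 1 FPKM (fragment counts scaled to transcript length and library size) in at least 4 of the 16 libraries. The remaining 8 libraries carry the same labels together with BBR, read as berberine from the title of the series, with 4 KD and 4 NC mice, and they enter below only where the label effect is set beside its counterpart under berberine. The sample descriptions carry the prefix AAV for all 16 mice, read as an adeno-associated virus, so the negative controls were read as vector-treated too. The tissue is whole liver and the RNA was selected by its poly(A) tail. The labels give no strain, age, sex, diet, vector dose, promoter or target sequence, and the series title names fatty liver disease without saying which mice had it. Titles number the mice 1 to 4 in each group, which is read as 1 mouse per library.

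AKR1B10 belongs to the aldo-keto reductases and uses NADPH to turn aldehydes such as retinal into alcohols. The liver is the organ that burns fatty acids in mitochondria and peroxisomes, breaks down amino acids, conjugates foreign and reactive compounds, and secretes most plasma proteins. During inflammation hepatocytes raise the acute phase proteins of the plasma, and interferons switch on a separate set of antiviral genes in most cell types.

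Akr1b10 itself was not detectably lower in the KD mice. Akr1b10 (ENSMUSG00000061758, chr6:34384218-34396950, mm10, plus strand) had 0.506, 0.351, 0.397 and 0.859 FPKM in the libraries labelled KD, against 0.177, 0.486, 0.420 and 0.505 FPKM in NC. The groups overlapped, and the exact permutation test of the means gave p = 0.486 where the smallest possible p is 0.0286. The related genes Akr1b3, Akr1b7 and Akr1b8 gave exact permutation p-values of 0.40, 0.543 and 0.886. Every direction below is therefore that of the label, not of a measured loss of Akr1b10.

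Total counts lay between 54764510 and 65012872 in the libraries labelled KD and between 50028526 and 66235443 in NC. KD 4 stood apart: mitochondrially encoded genes took 35.4% of its counts, against 11.2 to 15.4% in KD 1 to KD 3 and 11.04 to 13.3% in NC. FPKM is not corrected for that share, and the median gene of KD 4 stood at 0.765 of the NC mean in FPKM, so fold changes below come from counts scaled by TMM factors (edgeR's correction for composition). Of the 16 hepatocyte identity genes 0 were higher and 0 lower at an unadjusted p under 0.05, with a median log2 difference of -0.10. Their mean log2 level relative to NC was 0.02, 0.01 and 0.05 in KD 1, KD 2 and KD 3, and -0.70 in KD 4.

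The quasi-likelihood test of edgeR called 0 genes at an adjusted p under 0.05. At an unadjusted p under 0.05 the test counted 1603 genes, which is 14.8% of those tested, and DESeq2 called 105 genes at an adjusted p under 0.05, which is 0.968%. Of the 1603 genes 903 (8.33% of all tested) were higher and 700 (6.45%) were lower in the libraries labelled KD. These shares are the background for the counts below, in which "counted" means an unadjusted edgeR p under 0.05; the adjusted p of all counted genes lay between 0.267 and 0.337. With limma on log2(FPKM + 1) the split was 402 higher and 1300 lower, and with 0.1 added the median of all genes lay at -0.11, so the balance of higher and lower genes depends on the scale. Groups did not overlap for 529 genes in TMM-scaled CPM (counts scaled to library size) (4.88%; 256 higher and 273 lower) and for 604 genes in FPKM (5.57%; 110 higher and 494 lower).

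The differences were not shared evenly by the 4 libraries labelled KD. KD 4 lay farthest from NC for 567 of the 903 higher genes (62.8%) and for 462 of the 700 lower genes (66.0%). KD 3 lay farthest for 277 (30.7%) and 152 (21.7%). KD 2 was the library nearest to NC for 692 higher genes (76.6%) and 541 lower genes (77.3%). Without KD 2 edgeR called 609 genes at an adjusted p under 0.05 (5.61%; 278 or 2.56% higher and 331 or 3.05% lower). Without KD 3 and KD 4 together 394 genes were counted and 1, AW146154, was called. Without KD 1 edgeR called 1 gene, 4632415L05Rik, and both were named after their values were seen. Leaving out NC 1, NC 2 or KD 4 gave 1025, 1061 or 1110 counted genes. The sign held in all 8 fits that leave out 1 library for 1601 of the 1603 genes. These genes were chosen by their p in the same libraries, so the choice largely fixed that agreement, and it is no separate support. Of the genes named below and in the closing section with their values, 92 in number, 33 had a DESeq2 adjusted p under 0.05. Without KD 2, 62 of the 92 had an edgeR adjusted p under 0.05. KD 2 lay nearest to NC for most counted genes, so leaving it out widens the differences through the choice of library. Every other fit that left out 1 library called 0 genes, or 1 without KD 1. Adjusted p-values and calls without KD 2, here and below, are therefore no separate support.

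**Figure D1:**
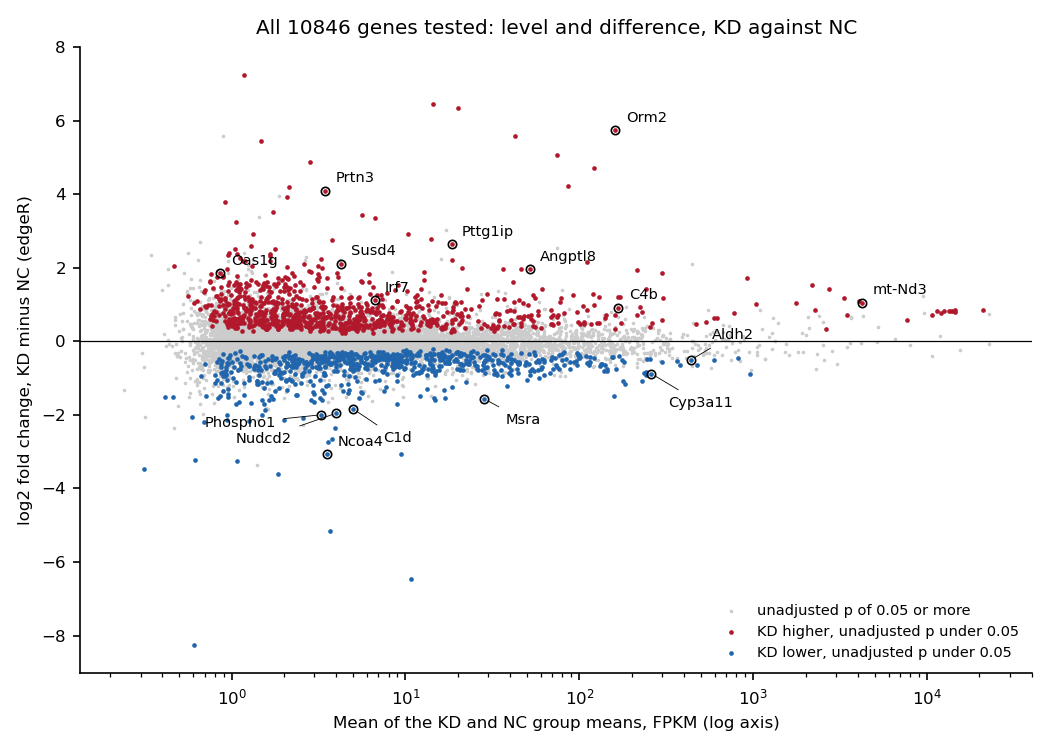
Each point is 1 tested gene, with the mean of the 2 group means in FPKM on a log x axis and the log2 fold change of KD minus NC from edgeR on the y axis; red and blue mark 903 genes higher and 700 genes lower in KD at an unadjusted p under 0.05. Of the 16 genes circled and labelled Orm2 stands highest and Ncoa4 lowest.

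Interferon-response genes were higher in the libraries labelled KD. Of 30 tested genes 12 were counted as higher and 0 as lower, where 8.33% of all genes were higher, and the median log2 difference was 0.53, against 0.02 over all genes. Irf7 is the transcription factor that amplifies the interferon response. Irf7 (ENSMUSG00000025498, chr7:141262706-141266481) had 8.77, 5.45, 10.2 and 11.03 FPKM in the libraries labelled KD, against 4.11, 3.72, 4.697 and 5.32 FPKM in NC. Every KD library lay above every NC library, KD 2 by the smallest margin, and the log2 difference was 1.12 (SE 0.26, unadjusted p = 0.00063). DESeq2 gave Irf7 an adjusted p of 0.0194, and without KD 2 edgeR gave 0.0202. Oas1g and Oas1a make the oligoadenylates that switch on an RNA-cutting enzyme in infected cells. Oas1g had 1.32, 0.795, 1.85 and 1.34 FPKM in the libraries labelled KD, against 0.266, 0.443, 0.256 and 0.623 FPKM in NC, a log2 difference of 1.85 (SE 0.31, unadjusted p = 2.68e-05; DESeq2 adjusted p = 2.21e-05). Oas1a had 1.67, 1.59, 3.28 and 2.29 FPKM in the libraries labelled KD, against 0.923, 1.12, 0.844 and 1.26 FPKM in NC, a log2 difference of 1.21 (SE 0.30, unadjusted p = 0.00121). For both genes the groups did not overlap, at levels near 1 FPKM, and 39.4% of the 100-base windows of Oas1g also occur in Oas1a, so reads may be split between them. Gbp3, an interferon-induced GTPase shown because of its promoter and after its values were seen, had 2.02, 1.55, 2.34 and 3.43 FPKM in the libraries labelled KD, against 0.773, 1.34, 1.29 and 1.58 FPKM in NC, and KD 2 lay inside the NC range. The count of the list ran from 8 without KD 4 to 13 without KD 2 or KD 3, and the median of 0.53 was 0.28 without KD 4 and 0.19 without KD 3 and KD 4. In whole liver more cells of a type and more RNA per cell cannot be told apart.

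The promoters of these 4 genes are printed because members of the interferon list were higher together and interferon genes are known to share a motif before their start site. RefSeq (build GRCm38.p6) gives the following 250 bases before each start site, in the direction of the gene, with matches to GAAA, any NN, then GAAA on either strand in capitals, merged where they overlap. The motif is the repeated core of the interferon-stimulated response element, in which N is any base.
Oas1g, chr5:120887614-120887863, minus strand: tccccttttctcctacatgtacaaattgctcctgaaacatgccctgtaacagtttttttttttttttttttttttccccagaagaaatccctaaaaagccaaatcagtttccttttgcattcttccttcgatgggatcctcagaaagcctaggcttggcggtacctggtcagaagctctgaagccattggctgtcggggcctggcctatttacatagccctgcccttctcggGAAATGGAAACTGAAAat
Oas1a, chr5:120907526-120907775, minus strand: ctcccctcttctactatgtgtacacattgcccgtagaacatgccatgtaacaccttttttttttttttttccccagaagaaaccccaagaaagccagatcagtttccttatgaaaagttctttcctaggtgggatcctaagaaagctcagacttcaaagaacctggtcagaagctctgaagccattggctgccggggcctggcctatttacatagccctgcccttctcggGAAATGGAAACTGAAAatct
Gbp3, chr3:142559794-142560043, plus strand: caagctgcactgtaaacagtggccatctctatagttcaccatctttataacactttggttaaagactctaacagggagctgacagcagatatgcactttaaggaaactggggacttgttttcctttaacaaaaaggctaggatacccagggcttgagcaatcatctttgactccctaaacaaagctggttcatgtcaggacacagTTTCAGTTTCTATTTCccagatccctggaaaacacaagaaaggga
Irf7, chr7:141266425-141266674, minus strand: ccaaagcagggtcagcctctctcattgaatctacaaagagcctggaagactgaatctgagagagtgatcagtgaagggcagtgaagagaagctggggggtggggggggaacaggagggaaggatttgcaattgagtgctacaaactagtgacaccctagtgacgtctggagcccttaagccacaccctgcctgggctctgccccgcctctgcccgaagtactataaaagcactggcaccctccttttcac
Oas1g and Oas1a hold the same run of capitals close to the start site, Gbp3 holds a run on the opposite strand, and Irf7 holds none in this window. RefSeq gives Gbp3 a second promoter (chr3:142560106-142560405, 250 bases before and 50 after the start), not printed, which holds no match. Of 32851 promoters of 300 bases (250 before and 50 after the start) 3.44% hold the motif on either strand, and of 27025 genes 3.99% hold it in at least 1 promoter. Of 30 interferon genes tested 20 had a promoter in the RefSeq table and 14 of these held the motif. Among the 7 counted genes with a promoter, 4 held it. A match describes the letters of the window and does not show binding.

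Acute phase genes were higher as a list and the difference rested largely on KD 3. Of 30 genes 14 were counted as higher and 0 as lower, with a median log2 difference of 1.19. Without KD 3 the list held 1 counted gene and a median of 0.36, and without KD 4 it held 18. Orm2, an orosomucoid secreted in the acute phase response, had 32.3, 14.1, 1199 and 20.01 FPKM in the libraries labelled KD, against 2.98, 4.33, 4.32 and 12.1 FPKM in NC. KD 3 stood far above the others, and the log2 difference of 5.75 (SE 1.78) was 2.06 without it. Saa3, a serum amyloid A, had 5.04, 3.61, 12.1 and 4.31 FPKM in the libraries labelled KD, against 1.35, 1.86, 1.67 and 2.44 FPKM in NC, with no overlap. Itih3, a hyaluronan-binding plasma protein, had 198, 113, 460.2 and 142 FPKM in the libraries labelled KD, against 117, 90.5, 119 and 89.2 FPKM in NC. For Itih3 KD 2 lay inside the NC range, and the log2 difference was 0.68 without KD 3, against 1.2 with all libraries. Hpx, the plasma protein that binds haem, had 2078, 1502, 8722 and 633 FPKM in the libraries labelled KD, against 1151, 1149.7, 1108 and 1111 FPKM in NC, and KD 4 lay below every NC library. Hpx was named after its values were seen.

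A few complement genes were higher. Of 38 complement and coagulation genes 6 were counted as higher and 0 as lower (15.8%), with a median log2 difference of 0.19, and the count ran from 3 without KD 3 to 12 without KD 4. Without KD 3 the median was 0.05. The mean log2 level of the list relative to NC was 0.16, 0.29 and 0.59 in KD 1, KD 2 and KD 3 and -0.32 in KD 4, below the lowest NC library at -0.11. C4b, the fourth complement component, had 232, 156, 302 and 166 FPKM in the libraries labelled KD, against 116, 128, 117 and 123 FPKM in NC. Every KD library lay above every NC library, the NC values were close together, and the log2 difference was 0.92 (SE 0.22, unadjusted p = 0.000901; DESeq2 adjusted p = 0.0246). Of the 100-base windows of C4b 16.7% also occur in C4a, so some reads may be shared. Hc, the mouse gene for the fifth complement component, had 88.2, 86.2, 128 and 62.7 FPKM in the libraries labelled KD, against 60.98, 53.7, 57.4 and 62.6 FPKM in NC, a log2 difference of 0.72 (SE 0.23, unadjusted p = 0.00725). KD 4 exceeded the highest NC library of Hc by less than 1 FPKM.

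Genes of inflammatory signalling and of myeloid cells were higher too. Of 17 chemokine and NF-kB genes 4 were counted as higher and 0 as lower, with a median log2 difference of 0.80 and 4 to 6 counted when 1 library was left out. Bcl3, a nuclear partner of NF-kB, had 14.4, 14.7, 23.7 and 15.3 FPKM in the libraries labelled KD, against 10.3, 11.2, 6.91 and 12.7 FPKM in NC. Gsdmd, which forms the membrane pores of pyroptosis, had 11.2, 9.59, 20.2 and 10.7 FPKM in the libraries labelled KD, against 7.59, 7.51, 8.53 and 8.87 FPKM in NC. In both genes the groups did not overlap and KD 3 was the highest library; the log2 differences were 0.84 (SE 0.23) and 0.76 (SE 0.20), and without KD 3 they were 0.70 and 0.53. Fcer1g, the signalling chain of Fc receptors in myeloid cells, had 14.6, 9.61, 23.9 and 10.1 FPKM in the libraries labelled KD, against 4.53, 9.18, 5.295 and 4.87 FPKM in NC. Cxcl1, which attracts neutrophils, had 15.7, 13.9, 64.5 and 3.12 FPKM in the libraries labelled KD, against 3.51, 2.28, 3.102 and 5.42 FPKM in NC, and KD 4 lay inside the NC range. Prtn3, a serine protease of neutrophil granules, had 2.63, 0.548, 22.1 and 0.839 FPKM in the libraries labelled KD, against 0.262, 0.355, 0.329 and 0.528 FPKM in NC, and KD 3 stood far above the rest.

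Markers of some immune cells were counted as higher too, unevenly over the libraries labelled KD. Of 12 Kupffer cell markers 11 passed the filter on low values, of which 10 were counted as higher and 0 as lower (median log2 difference 1.14), and the summed level of the 12 was 89.2 to 311 FPKM in the libraries labelled KD and 53.8 to 135 FPKM in NC. Without KD 3 the count was 3. The mean log2 level of the tested Kupffer markers relative to NC was 1.17, 0.725, 2.20 and 0.467 in KD 1 to KD 4, with the highest NC library at 0.729. Of 12 neutrophil markers 3 passed the filter, and the summed level of the 12 was 1.40 to 346 FPKM in the libraries labelled KD and 1.39 to 2.63 FPKM in NC. All 3 were counted as higher, but without KD 3 only 1 was. Their mean log2 level relative to NC was 1.78, -0.69, 6.58 and 2.24 in KD 1 to KD 4, so KD 2 lay inside the NC range of -0.69 to 0.83. In both lists 0 markers had a count of 0 in all 8 libraries. The part of these cells in the differences of inflammatory genes was not tested. Markers of stellate cells and fibroblasts (10 genes) gave 0 higher and 0 lower, and those of sinusoidal endothelium (10 genes) gave 1 higher and 0 lower. Col1a1, the main fibrillar collagen chain, had 6.93, 1.94, 2.54 and 6.21 FPKM in the libraries labelled KD, against 0.859, 2.98, 1.02 and 0.565 FPKM in NC, with KD 1 and KD 4 highest and the others inside the NC range.

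**Figure D2:**
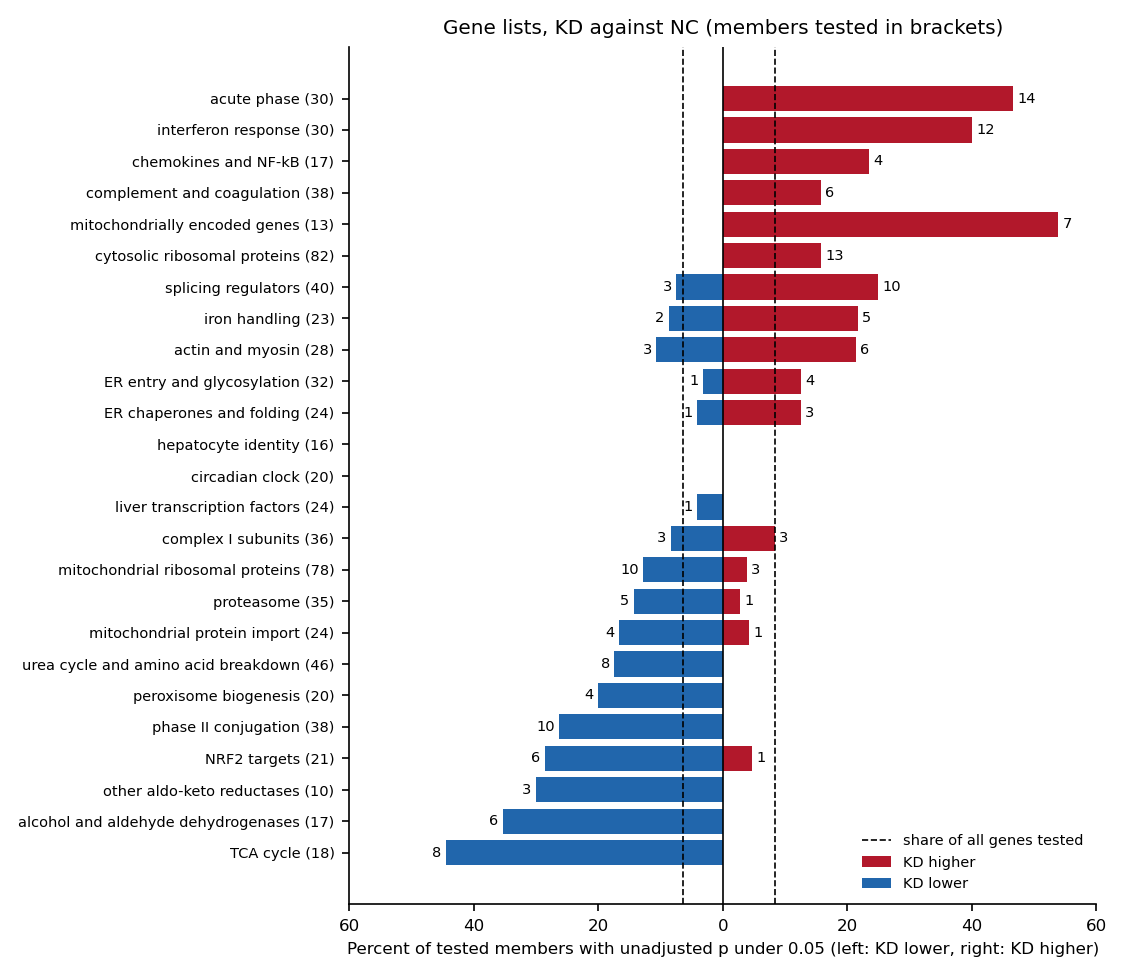
Bars give the percentage of tested members of 25 gene lists with an unadjusted edgeR p under 0.05, higher in KD to the right and lower to the left, with the number of members beside each bar; dashed lines mark the shares of all genes tested, 8.33% higher and 6.45% lower. Acute phase, interferon and mitochondrially encoded genes stand on the higher side and TCA cycle, aldehyde dehydrogenase and aldo-keto reductase genes on the lower side.

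On the lower side the tricarboxylic acid (TCA) cycle and pyruvate dehydrogenase genes gave the largest share of the lists plotted. Of 18 genes 8 were counted as lower (44.4%, against 6.45% of all genes) and 0 as higher, with a median log2 difference of -0.40. Between 6 and 10 were counted when 1 library was left out, and without KD 2 edgeR called 6 at an adjusted p under 0.05. Idh2, the NADP-dependent isocitrate dehydrogenase of mitochondria, had 15.8, 22.8, 12.7 and 9.32 FPKM in the libraries labelled KD, against 24.97, 34.9, 25.8 and 25.5 FPKM in NC. All KD libraries lay below all NC libraries, and the log2 difference was -0.77 (SE 0.19, unadjusted p = 0.000835; DESeq2 adjusted p = 0.0268). Ogdh, of the oxoglutarate dehydrogenase complex, had 21.5, 23.8, 18.7 and 13.7 FPKM in the libraries labelled KD, against 27.5, 30.8, 26.7 and 27.99 FPKM in NC, a log2 difference of -0.44 (SE 0.12, unadjusted p = 0.00176; DESeq2 adjusted p = 0.0281). Dlat and Pdha1 are parts of the pyruvate dehydrogenase complex that feeds the cycle. Dlat had 4.65, 5.204, 3.35 and 2.54 FPKM in the libraries labelled KD, against 5.93, 9.04, 5.88 and 6.06 FPKM in NC, and Pdha1 had 28.8, 26.7, 21.2 and 19.3 FPKM in the libraries labelled KD, against 31.1, 39.8, 30.4 and 33.2 FPKM in NC. In all 4 genes the groups did not overlap on either scale, KD 2 or KD 1 was nearest to NC and KD 4 was lowest. Without KD 4 their log2 differences were -0.64, -0.35, -0.56 and -0.34, against -0.77, -0.44, -0.67 and -0.37 with it. Pdha1 overlaps Map3k15 on the other strand, and the use of strand in counting is not given in the sources used here.

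Other genes for mitochondrial proteins were counted in both directions. Of 36 complex I subunits 3 were counted as higher and 3 as lower (8.33% each), near the 8.33% and 6.45% of all genes. Of 39 subunits of complexes II to V 2 were higher and 5 lower (5.13% and 12.8%). The median log2 differences were -0.07 for complex I and -0.14 for complexes II to V. Without KD 4 these medians were 0.10 and -0.01. The complex I lower count ran from 1 without KD 4 to 4 without KD 1, and that of complexes II to V from 2 without KD 4 to 11 without KD 2. Ndufv1, which carries the NADH-binding site of complex I, had 17.02, 27.7, 21.9 and 8.09 FPKM in the libraries labelled KD, against 32.4, 36.2, 32.9 and 33.6 FPKM in NC, a log2 difference of -0.78 (SE 0.23). Ndufb4, an accessory subunit of the same complex, went the other way with 65.9, 33.5, 68.4 and 49.5 FPKM in the libraries labelled KD, against 32.3, 32.9, 38.6 and 43.9 FPKM in NC. Ndufb4 overlapped between groups through KD 2, and 34.1% of its windows also occur in a related gene. Sdha, the flavoprotein of succinate dehydrogenase, had 40.4, 77.1, 36.8 and 18.7 FPKM in the libraries labelled KD, against 86.6, 94.1, 68.3 and 60.9 FPKM in NC, with KD 2 inside the NC range. Uqcrq of complex III had 443, 232, 445 and 279.8 FPKM in the libraries labelled KD, against 235, 229.9, 232 and 298 FPKM in NC, with KD 1 and KD 3 highest. Of 24 import genes 4 were lower and 1 higher; among them Hspd1, the mitochondrial chaperonin, had 78.03, 109, 64.9 and 37.5 FPKM in the libraries labelled KD, against 123, 129, 96.5 and 106 FPKM in NC. The import count on the lower side was 0 without KD 3 and 7 without KD 2.

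Mitochondrial ribosomal protein genes gave 10 lower and 3 higher of 78 (12.8% lower), with a median log2 difference of -0.12 that was 0.01 without KD 4. The lower count ran from 5 without NC 3 to 17 without KD 2. Mrps9, of the small subunit, had 2.27, 2.92, 2.04 and 1.73 FPKM in the libraries labelled KD, against 3.55, 3.79, 3.4999 and 3.15 FPKM in NC, a log2 difference of -0.53 (SE 0.14, unadjusted p = 0.00209; DESeq2 adjusted p = 0.0461). Mrpl37, of the large subunit, had 5.998, 6.58, 5.402 and 4.35 FPKM in the libraries labelled KD, against 7.89, 7.92, 7.47 and 8.33 FPKM in NC, a log2 difference of -0.40 (SE 0.12; DESeq2 adjusted p = 0.0494). Mrps2 had 8.44, 9.86, 8.91 and 3.42 FPKM in the libraries labelled KD, against 12.3, 11.98, 11.5 and 10.7 FPKM in NC. In these 3 genes the groups did not overlap, and for Mrps2 KD 4 alone was below 5 FPKM.

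The 13 protein genes of the mitochondrial genome stood on the other side, with 7 counted as higher and a median log2 difference of 0.78. KD 4 set that value: without it 1 gene was counted and the median was 0.10. mt-Nd3, a complex I subunit, had 5204, 2608, 4713 and 9279 FPKM in the libraries labelled KD, against 2768, 2635, 2918 and 3574 FPKM in NC, with KD 2 below the lowest NC library, and 92.3% of its windows also occur in Gm28438. mt-Tc, the mitochondrial cysteine tRNA, had 159, 121, 267 and 163 FPKM in the libraries labelled KD, against 72.1, 62.9, 97.8 and 94.7 FPKM in NC. For mt-Tc the groups did not overlap, KD 3 was highest rather than KD 4, and the log2 difference of 1.21 (SE 0.32) was 1.18 without KD 4. Of 22 mitochondrial tRNA genes that passed the filter 10 were counted as higher and 0 as lower. How that count changes without KD 4 was not examined. The RNA was selected by its poly(A) tail and read in ends of 150 bases, so counts on these short genes were not read as levels of the tRNAs themselves.

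Several groups of detoxifying enzymes held lower genes in the libraries labelled KD. Of 38 phase II conjugation genes 10 were counted as lower and 0 as higher (26.3%; median log2 difference -0.22), of 17 alcohol and aldehyde dehydrogenases 6 and 0 (35.3%; -0.37), and of 10 aldo-keto reductases outside the AKR1B family 3 and 0 (-0.46). The lower counts ran from 5 to 15, from 4 to 9 and from 2 to 8 when 1 library was left out, the highest each time without KD 2. Of 14 carboxylesterases 1 was lower (7.14%, near the 6.45% of all genes) and 0 higher, with 6 lower without KD 2. The mean log2 level of the phase II list relative to NC was -0.20, -0.64 and -0.94 in KD 1, KD 3 and KD 4 and 0.17 in KD 2, above the highest NC library at 0.11. Without KD 3 and KD 4 the phase II median was 0.04 and 0 genes were counted. Gstk1, a glutathione transferase of mitochondria and peroxisomes, had 113, 108, 71.6 and 51.1 FPKM in the libraries labelled KD, against 151, 154, 132 and 135 FPKM in NC. Gsta4, which conjugates the lipid aldehyde hydroxynonenal, had 37.4, 42.8, 30.6 and 11.9 FPKM in the libraries labelled KD, against 60.4, 66.9, 46.5 and 60.4 FPKM in NC. Gstt3 had 12.4, 9.41, 4.32 and 7.04 FPKM in the libraries labelled KD, against 15.02, 19.3, 16.2 and 14.1 FPKM in NC. None of the 3 genes overlapped between groups, with log2 differences of -0.64 (SE 0.19), -0.86 (SE 0.27) and -0.85 (SE 0.27). The lowest library was KD 4 for Gstk1 and Gsta4 and KD 3 for Gstt3.

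Among the aldehyde-handling enzymes Aldh2, the mitochondrial acetaldehyde dehydrogenase, had 403, 453, 370.4 and 183 FPKM in the libraries labelled KD, against 493, 586, 497 and 534 FPKM in NC. The groups of Aldh2 did not overlap, KD 4 was lowest, and the log2 difference of -0.50 (SE 0.18, unadjusted p = 0.0157) was -0.32 without KD 4. Akr1e1, an aldo-keto reductase that reduces anhydrofructose, had 4.72, 5.72, 4.88 and 3.79 FPKM in the libraries labelled KD, against 9.87, 10.6, 8.69 and 5.497 FPKM in NC. NC 4 was low for Akr1e1 and made the groups overlap, and the log2 difference was -0.76 (SE 0.21, unadjusted p = 0.00226). Akr7a5, a reductase of aflatoxin aldehyde and succinic semialdehyde, had 77.98, 107, 78.998 and 30.9 FPKM in the libraries labelled KD, against 132, 133, 107 and 109 FPKM in NC; the groups did not overlap in FPKM but did in TMM-scaled values, and KD 4 stood lowest. Of 33 cytochrome P450 genes of families 1 to 3, 3 were counted as lower (9.09%) and 0 as higher, with 8 lower without KD 2, and 1 lower and 2 higher without KD 3. Cyp3a11, a main drug-oxidising P450 of mouse liver, had 235, 238, 162 and 70.96 FPKM in the libraries labelled KD, against 333, 437, 313 and 289 FPKM in NC, a log2 difference of -0.88 (SE 0.31) that was -0.65 without KD 4. Of 21 NRF2 target genes 6 were lower and 1 higher; 2 were lower without KD 4 and 8 without KD 2. The higher one was G6pdx, the entry enzyme of the pentose phosphate pathway, with 1.197, 0.925, 2.12 and 1.27 FPKM in the libraries labelled KD, against 0.683, 0.844, 0.536 and 0.706 FPKM in NC.

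Amino acid breakdown, peroxisome and glycogen genes were also counted more often on the lower side. Of 46 urea cycle and amino acid genes 8 were lower and 0 higher (17.4%; median log2 difference -0.23), with 3 lower without NC 3 and 15 without KD 2. Oat, the ornithine aminotransferase of mitochondria, had 275, 235, 195 and 211 FPKM in the libraries labelled KD, against 373, 409, 348 and 331 FPKM in NC. For Oat no KD library reached the NC range, KD 3 rather than KD 4 was lowest, and the log2 difference was -0.56 (SE 0.18, unadjusted p = 0.00752). Of 20 peroxisome biogenesis genes 4 were lower and 0 higher, with 3 to 7 when 1 library was left out. Pex16, which helps to place proteins in the peroxisome membrane, had 46.8, 44.8, 35.3 and 26.6 FPKM in the libraries labelled KD, against 61.5, 55.8, 60.6 and 64.7 FPKM in NC, a log2 difference of -0.56 (SE 0.15, unadjusted p = 0.00201; DESeq2 adjusted p = 0.0451). Pex5, the receptor that carries enzymes into the peroxisome, had 17.99, 20.4, 18.6 and 13.7 FPKM in the libraries labelled KD, against 25.3, 25.9, 21.4 and 22.6 FPKM in NC, a log2 difference of -0.32 (SE 0.12). Neither peroxin overlapped between groups, and Pex16 overlaps Large2 on the other strand. Of 14 glycogen genes 4 were lower (2 without KD 3) and 1 higher; Gbe1, the glycogen branching enzyme, had 2.84, 6.601, 2.16 and 1.31 FPKM in the libraries labelled KD, against 7.204, 9.97, 6.15 and 5.66 FPKM in NC, with KD 2 inside the NC range. In the lipid lists 12 of 28 oxidation genes and 5 of 29 synthesis genes were counted as lower. The oxidation count ran from 5 without NC 2 to 13 without KD 2 and was 6 without KD 3, and the synthesis count was 3 without KD 4. The desaturase-like gene Fads6, with 5.95, 8.998, 6.502 and 4.05 FPKM in the libraries labelled KD and 9.95, 12.6, 11.2 and 9.91 FPKM in NC, did not overlap between groups.

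**Figure D3:**
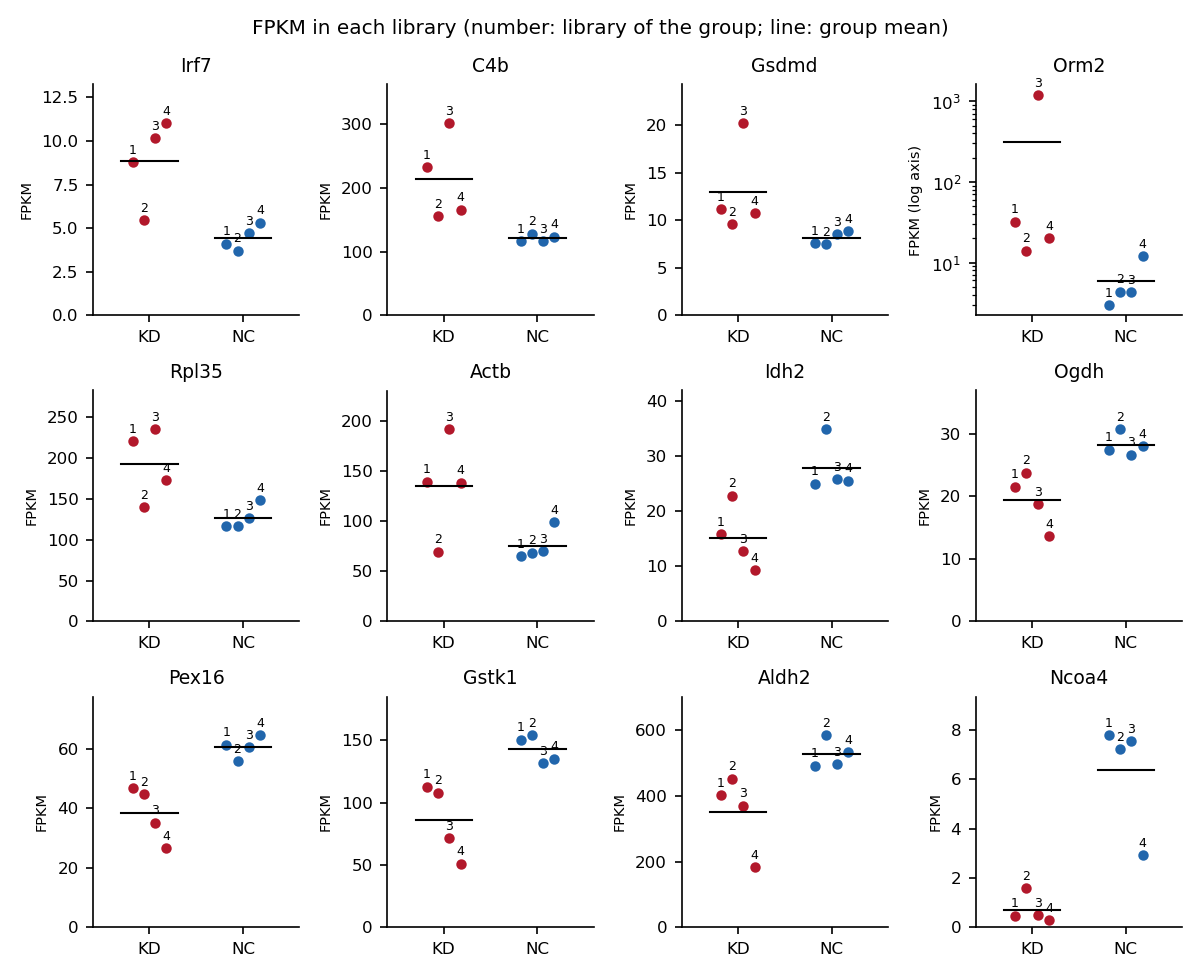
FPKM of 12 genes in each library (y axis, starting at 0 except for Orm2, which has a log axis), with KD on the left and NC on the right, the library number above each point and a line at the group mean. KD 3 is highest for C4b, Gsdmd, Orm2 and Actb, and KD 4 is lowest for Idh2, Ogdh, Pex16, Gstk1, Aldh2 and Ncoa4.

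Genes of the secretory pathway were counted in both directions, at shares not far from the 8.33% higher and 6.45% lower of all genes. Of 32 genes of entry into the endoplasmic reticulum (ER) and glycosylation 4 were counted as higher and 1 as lower (12.5% and 3.1%). Of 24 ER chaperones the counts were 3 and 1 (12.5% and 4.17%), and of 19 genes of ER-associated degradation 2 and 1 (10.5% and 5.26%). Without KD 4 the first and second lists held 8 higher genes each, and without KD 3 they held 2 and 1. Without KD 2 the first list held 4 lower genes. Krtcap2 and Magt1 belong to the oligosaccharyltransferase complexes that attach sugars to new proteins. Krtcap2 had 39.3, 31.8, 52.6 and 23.4 FPKM in the libraries labelled KD, against 14.7, 13.4, 15.5 and 28.5 FPKM in NC, a log2 difference of 1.11 (SE 0.29, unadjusted p = 0.00174; DESeq2 adjusted p = 0.0441). Magt1 had 15.9, 13.5, 17.5 and 17.05 FPKM in the libraries labelled KD, against 11.9, 10.3, 11.4 and 12.95 FPKM in NC, a log2 difference of 0.58 (SE 0.17). Magt1 did not overlap between groups, and Krtcap2 overlapped in FPKM only through KD 4 and NC 4. Spcs1, a subunit of the signal peptidase, was lower with 4.83, 11.1, 6.52 and 2.01 FPKM in the libraries labelled KD, against 23.9, 23.3, 17.4 and 8.21 FPKM in NC. For Spcs1 NC 4 lay below KD 2, and the gene overlaps Glt8d1 on the other strand.

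Within the ER lists Sdf2, an ER-resident protein of the chaperone list, gave the smallest p on the lower side. Sdf2 had 9.62, 13.4, 11.6 and 7.06 FPKM in the libraries labelled KD, against 18.5, 18.6, 17.9 and 19.2 FPKM in NC. The NC libraries were close together, every KD library was below them, and the log2 difference was -0.74 (SE 0.17, unadjusted p = 0.00074; DESeq2 adjusted p = 0.0246). Sdf2 overlaps Supt6 on the other strand. Fkbp11, a prolyl isomerase of secretory cells, had 4.87, 3.49, 8.89 and 4.56 FPKM in the libraries labelled KD, against 2.59, 2.401, 2.49 and 4.74 FPKM in NC. Edem2, which trims mannose from misfolded glycoproteins, had 16.9, 17.7, 23.4 and 16.8 FPKM in the libraries labelled KD, against 15.7, 14.4, 15.3 and 15.3 FPKM in NC, a log2 difference of 0.41 (SE 0.12; DESeq2 adjusted p = 0.0441). Edem2 did not overlap between groups, while Fkbp11 did through KD 2, KD 4 and NC 4. Kdelr2, a receptor that returns escaped ER proteins, had 46.4, 40.2, 68.3 and 32.4 FPKM in the libraries labelled KD, against 33.8, 38.9, 30.1 and 31.8 FPKM in NC. Sec24a, a cargo adaptor of COPII vesicles, had 8.35, 6.05, 8.47 and 9.73 FPKM in the libraries labelled KD, against 5.42, 6.45, 5.62 and 6.46 FPKM in NC. Both overlapped in FPKM and did not in TMM-scaled values. Atf6, a sensor of ER stress, had 2.52, 2.96, 3.26 and 1.58 FPKM in the libraries labelled KD, against 3.71, 4.04, 3.52 and 3.89 FPKM in NC, with every KD library below NC; it was the only counted gene of 14 tested in the unfolded protein response list.

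Some cytosolic ribosomal protein genes were higher, with 13 of 82 counted as higher (15.9%), 0 as lower and a median log2 difference of 0.16. The count was 6 without KD 1 or KD 3 and 26 without KD 4. The median was 0.03 without KD 3, and -0.0029 by limma on log2(FPKM + 1). The mean log2 level of the list relative to NC was 0.28, 0.13 and 0.50 in KD 1, KD 2 and KD 3 and -0.29 in KD 4, below the lowest NC library at -0.13. Rpl35 had 220.5, 140.2, 236 and 173 FPKM in the libraries labelled KD, against 116, 117, 126 and 148 FPKM in NC, a log2 difference of 0.71 (SE 0.18, unadjusted p = 0.00146; DESeq2 adjusted p = 0.0441). KD 2 lay inside the NC range of Rpl35 in FPKM, and 30.2% of its windows also occur in other annotated genes. Of 41 translation factors 1 was higher and 4 lower, with 0 lower without KD 1 and 14 without KD 2. The higher one, Eif5b, which joins the ribosomal subunits, had 8.69, 6.78, 8.08 and 11.8 FPKM in the libraries labelled KD, against 6.64, 5.34, 5.51 and 6.46 FPKM in NC, and the groups did not overlap.

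Among RNA-processing genes C1d and Lsm14b gave small p-values, but their list stood near the shares of all genes. Of 32 RNA exosome and decay genes 3 were higher and 3 lower (9.38% each, against 8.33% and 6.45% of all genes). The lower ones included C1d and Lsm14b. Without KD 2 the counts were 11 and 7, and without NC 3 the higher count was 0. C1d, a cofactor of the nuclear exosome, had 2.47, 3.05, 2.27 and 0.656 FPKM in the libraries labelled KD, against 8.503, 8.48, 7.79 and 7.01 FPKM in NC. Every KD library was below every NC library, and the log2 difference was -1.84 (SE 0.33, unadjusted p = 6.01e-05; DESeq2 adjusted p = 0.000295). Lsm14b, a protein of cytoplasmic RNA granules, had 2.24, 4.004, 2.01 and 2.07 FPKM in the libraries labelled KD, against 4.51, 5.48, 8.14 and 9.57 FPKM in NC, a log2 difference of -1.31 (SE 0.31; DESeq2 adjusted p = 0.0188). Of 40 splicing regulators 10 were higher and 3 lower (25.0% and 7.5%), with 0 higher without KD 4 and 15 without KD 2. Tra2a, an activator of exon inclusion, had 4.48, 3.11, 6.14 and 5.73 FPKM in the libraries labelled KD, against 3.297, 3.61, 3.08 and 3.703 FPKM in NC, with KD 2 inside the NC range. Leng8 was lower with 1.71, 2.297, 1.04 and 0.443 FPKM in the libraries labelled KD, against 3.15, 3.27, 2.896 and 3.63 FPKM in NC, and overlaps Leng9 on the other strand. Hnrnpd, which binds AU-rich elements of mRNAs, had 3.93, 3.93, 3.82 and 2.48 FPKM in the libraries labelled KD, against 4.77, 4.902, 5.42 and 6.24 FPKM in NC. Leng8 and Hnrnpd did not overlap between groups, and KD 4 was lowest in both. Snhg3, a host transcript of small nucleolar RNAs, had 21.7, 8.68, 14.98 and 15.8 FPKM in the libraries labelled KD, against 5.76, 8.45, 10.4 and 6.597 FPKM in NC, with KD 2 inside the NC range.

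Proteasome and autophagy genes were counted mostly on the lower side, and lysosomal genes on the higher side. Of 28 genes of lysosomal enzymes and the V-ATPase 4 were higher and 1 lower (14.3% and 3.57%), although the median log2 difference was -0.14, and 1 was higher without KD 3 or KD 4 and 5 were lower without KD 2. Of 35 proteasome genes 5 were lower and 1 higher (14.3% and 2.86%), with a median log2 difference of -0.23 that was -0.10 without KD 4; 14 were lower without KD 2. Psmd3, of the regulatory particle, had 13.5, 16.5, 13.3 and 9.63 FPKM in the libraries labelled KD, against 19.9, 20.3, 16.1 and 16.6 FPKM in NC. Of 21 autophagy genes 3 were lower and 1 higher, with 5 lower without KD 2. Atg7, the enzyme that activates the conjugation systems of autophagy, had 3.495, 4.86, 3.09 and 2.48 FPKM in the libraries labelled KD, against 7.56, 8.29, 5.64 and 4.38 FPKM in NC. Atg4b, the protease that processes LC3, had 1.01, 1.91, 1.51 and 0.563 FPKM in the libraries labelled KD, against 2.36, 2.703, 2.201 and 2.03 FPKM in NC. Psmd3 and Atg7 overlapped between groups, with KD 2 above the lowest NC library, and Atg4b did not overlap in FPKM but did in TMM-scaled values. Becn1, a subunit of the lipid kinase that starts autophagosomes, was the higher one with 6.64, 6.05, 8.44 and 5.47 FPKM in the libraries labelled KD, against 5.42, 6.12, 4.74 and 5.56 FPKM in NC.

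Ncoa4, the receptor that delivers ferritin to autophagy, was among the genes farthest apart. Ncoa4 had 0.472, 1.599, 0.508 and 0.284 FPKM in the libraries labelled KD, against 7.81, 7.24, 7.54 and 2.92 FPKM in NC. All KD libraries were below NC 4, the low NC library, and the log2 difference was -3.07 (SE 0.66, unadjusted p = 0.000298; DESeq2 adjusted p = 0.000628). Of 23 iron-handling genes 5 were higher and 2 lower, with a median log2 difference of 0.26, and without KD 3 the counts were 3 and 1. Without KD 2 the lower count was 5. Id1, a target of the BMP signalling that also drives hepcidin, had 12.5, 15.97, 12.1 and 17.4 FPKM in the libraries labelled KD, against 7.61, 6.05, 6.91 and 13.1 FPKM in NC, with NC 4 inside the KD range.

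Cytoskeletal genes were counted 6 times as higher and 3 times as lower among 28 of the actin and myosin list, with 3 higher and 2 lower without KD 3. Actb, the cytoplasmic beta-actin, had 139.6, 69.6, 192 and 139 FPKM in the libraries labelled KD, against 65.1, 68.7, 69.99 and 99.4 FPKM in NC. KD 2 stood with NC for Actb, the other KD libraries stood above, and the log2 difference was 0.95 (SE 0.24, unadjusted p = 0.0011; DESeq2 adjusted p = 0.0314). Flna, which crosslinks actin filaments, had 2.67, 1.33, 2.47 and 2.82 FPKM in the libraries labelled KD, against 1.63, 1.85, 1.33 and 1.66 FPKM in NC, with KD 2 again at the NC level. Myl12a, a regulatory light chain of non-muscle myosin, was lower with 2.72, 4.55, 4.74 and 4.12 FPKM in the libraries labelled KD, against 11.7, 12.3, 12.3 and 8.23 FPKM in NC. No KD library of Myl12a reached the NC range, and the log2 difference was -1.34 (SE 0.31, unadjusted p = 0.000653; DESeq2 adjusted p = 0.0188). Myl12a overlaps its neighbour Myl12b on the same strand and Myom1 on the other. Inf2, a formin, had 2.403, 3.37, 3.18 and 2.001 FPKM in the libraries labelled KD, against 6.99, 7.59, 4.01 and 7.75 FPKM in NC, also without overlap.

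Several lists held few counted genes. None of 20 circadian clock genes and none of 16 immediate early genes was counted (edgeR, unadjusted p under 0.05), and of 24 liver transcription factors 1 was lower. In the immediate early list 13 differences were above 0 and 3 below, with a median log2 difference of 0.33. The mean log2 level of that list relative to NC was 0.19 to 0.46 in the libraries labelled KD, above the highest NC library at 0.15. Of 24 bile acid genes 1 was lower (8 without KD 2), of 23 genes of the major urinary protein and growth hormone list 1 was lower, and of 21 nuclear receptors 1 was higher (3 without KD 2). That receptor was Nr1h2, the oxysterol receptor LXR-beta, with 12.2, 9.303, 10.3 and 16.5 FPKM in the libraries labelled KD, against 7.16, 8.16, 8.08 and 8.87 FPKM in NC. The groups of Nr1h2 did not overlap, KD 4 was highest, and the log2 difference of 0.73 (SE 0.20) was 0.43 without KD 4. Over all 66 lists 30 medians were above 0 and 36 below.

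**Figure D4:**
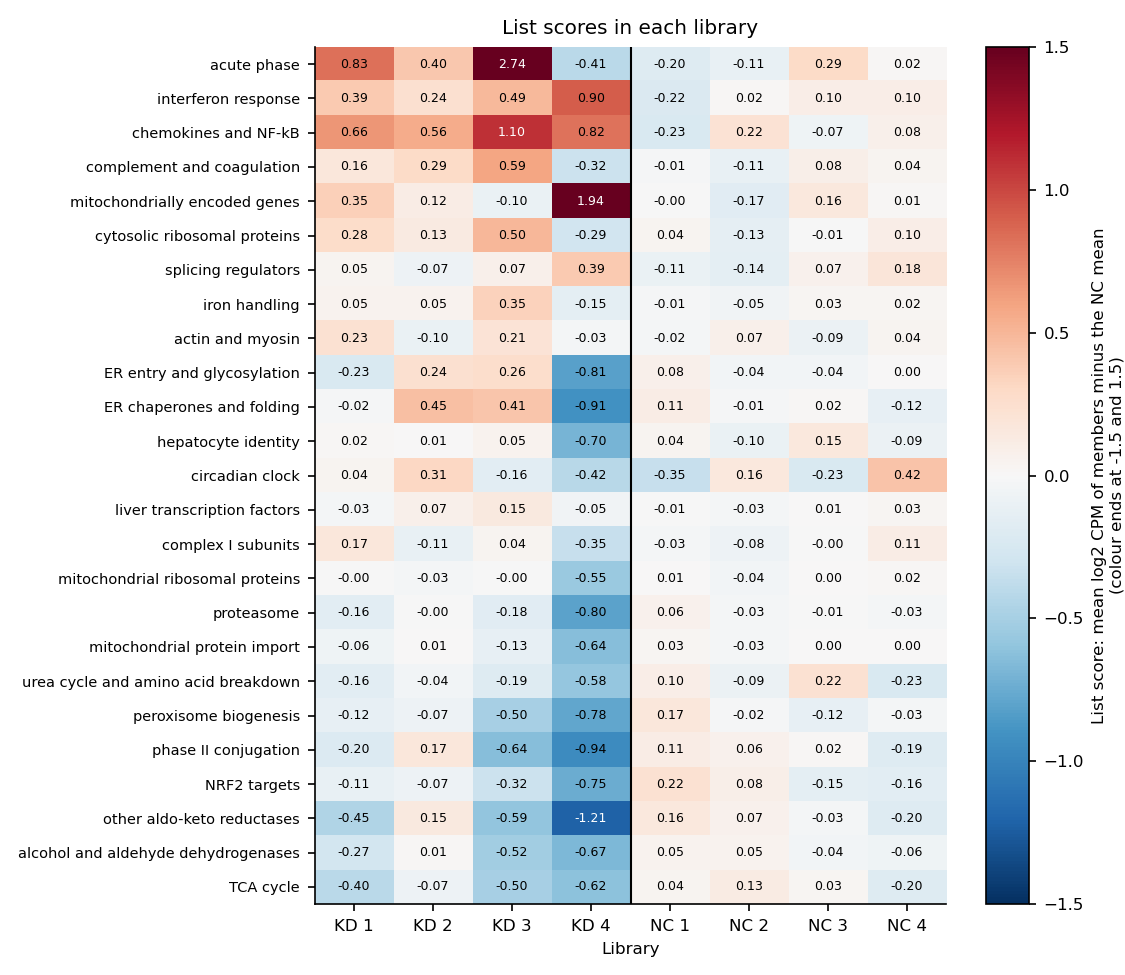
The mean log2 CPM of the tested members of 25 lists in each library, minus the NC mean, is written in each cell and coloured (scale ends at -1.5 and 1.5), with KD 1 to KD 4 on the left and NC 1 to NC 4 on the right. Acute phase genes peak in KD 3 and mitochondrially encoded genes in KD 4, interferon genes are above all NC libraries in every KD library, and TCA cycle genes are below the lowest NC library in KD 1, KD 3 and KD 4 but not in KD 2.

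Several genes outside the lists stood far apart between the groups. Pttg1ip, a binding partner of securin, had 35.5, 44.2, 28.03 and 18.3 FPKM in the libraries labelled KD, against 6.87, 5.74, 5.64 and 3.11 FPKM in NC. Susd4, a sushi-domain regulator of complement, had 4.76, 8.93, 4.65 and 8.79 FPKM in the libraries labelled KD, against 1.97, 1.73, 1.91 and 1.32 FPKM in NC. Angptl8, a liver-secreted inhibitor of lipoprotein lipase, had 42.1, 47.4, 55.2 and 175 FPKM in the libraries labelled KD, against 13.3, 23.5, 33.4 and 24.5 FPKM in NC. In none of these genes did the groups overlap. That was a condition for genes named by smallest p over all genes or by largest fold, here and above, so it is no separate support. KD 4 held the highest Angptl8 value by a wide margin. The log2 differences were 2.64 (SE 0.83), 2.11 (SE 0.63) and 1.96 (SE 0.52), and that of Angptl8 was 1.06 without KD 4. On the lower side Msra, which repairs oxidised methionine, had 6.77, 23.9, 5.32 and 16.96 FPKM in the libraries labelled KD, against 46.3, 46.7, 42.2 and 39.4 FPKM in NC. Nudcd2, a cochaperone, had 1.58, 2.901, 1.47 and 0.317 FPKM in the libraries labelled KD, against 6.998, 5.69, 6.46 and 6.39 FPKM in NC. Anp32b, a histone chaperone, had 15.6, 25.4, 16.3 and 13.2 FPKM in the libraries labelled KD, against 29.2, 28.6, 27.1 and 30.6 FPKM in NC. The groups of these 3 genes did not overlap either, by the same condition, with log2 differences of -1.57 (SE 0.56), -1.96 (SE 0.50) and -0.61 (SE 0.16). Alkbh2, a DNA repair demethylase, was higher with 4.29, 4.61, 7.43 and 7.11 FPKM in the libraries labelled KD, against 3.63, 2.55, 3.39 and 4.01 FPKM in NC (DESeq2 adjusted p = 0.0314). Phospho1, a phosphatase of phosphocholine and phosphoethanolamine, was lower with 1.63, 2.85, 0.0922 and 0.394 FPKM in the libraries labelled KD, against 3.07, 7.43, 7.16 and 3.47 FPKM in NC.

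Some of these genes sat at separate levels across the whole series. Pttg1ip was at 2.66 to 6.87 FPKM in 10 of the 16 libraries and at 18.3 to 44.9 FPKM in 6, of which 4 were labelled KD without berberine, 1 KD with berberine and 1 NC with berberine. Susd4 was at 8.71 FPKM in 1 KD library with berberine and at 10.7 and 10.8 FPKM in 2 NC libraries with berberine. Those 2 NC values lay above every KD library without berberine, where the highest was 8.93 FPKM. Orm2 was at 1199 FPKM in KD 3 and 750.1 FPKM in the second NC library with berberine, against 2.98 to 43.5 FPKM in the other 14. Prtn3 was highest in the same libraries, with 22.1 FPKM in KD 3 and 8.56 FPKM in that NC library with berberine, and so was Hpx, with 8722 and 5179 FPKM.

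Under berberine the label was set between 4 KD and 4 NC libraries that share no mouse with the comparison above. There 496 genes were counted (4.57%; 258 or 2.38% higher and 238 or 2.19% lower); edgeR called 0 at an adjusted p under 0.05 and DESeq2 called 5 (Krt5, Commd1b, Txndc5, Hspa8 and Zbtb40, named after their values were seen). Krt5 and Commd1b were listed at 0 in every KD library with berberine, and in 3 and 2 of the 4 NC libraries with berberine. Of the 1603 genes counted without berberine 1040 (64.9%) had the same sign under it, against 56.7% of all genes tested. In both comparisons 64 genes were counted with the same sign, which is 3.99% of the 1603 and 12.9% of the 496 genes, and 21 were counted with opposite signs. Over all genes tested 297 (2.74%) were counted under berberine with the sign they had without it, and 199 with the opposite sign. Without berberine 14.8% of all genes were counted, in either direction. The 903 higher genes had a median log2 difference of 0.74 without berberine and 0.09 under it, and the 700 lower genes -0.59 and -0.08. The first median of each pair was fixed by how the genes were counted and only the second is a result.

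Angptl8 kept its difference under berberine, with 141, 59.1, 65.5 and 52.1 FPKM in the libraries labelled KD with berberine, against 20.2, 9.65, 25.8 and 23.7 FPKM in NC with berberine. Its groups did not overlap there either, and the log2 difference was 1.95 (SE 0.52, unadjusted p = 0.00198). Myl12a was again lower, with 10.8, 4.63, 5.06 and 11.5 FPKM in the libraries labelled KD with berberine, against 14.2, 14.97, 14.2 and 8.75 FPKM in NC with berberine, a log2 difference of -0.77 (SE 0.31, unadjusted p = 0.0256), although the groups overlapped. Txndc5, a disulfide isomerase of the ER, had 38.9, 33.1, 33.9 and 32.3 FPKM in the libraries labelled KD with berberine, against 13.2, 10.8, 22.1 and 17.7 FPKM in NC with berberine, and 23.3, 34.9, 36.4 and 19.9 FPKM in the libraries labelled KD without it, against 27.3, 31.1, 22.6 and 34.2 FPKM in NC. Hspa8, the constitutive cytosolic chaperone, had 362, 419, 322 and 437 FPKM in the libraries labelled KD with berberine, against 123, 158, 223 and 204 FPKM in NC with berberine, and 297, 325, 429 and 172 FPKM in the libraries labelled KD without it, against 261, 312, 211 and 258 FPKM in NC. For both the groups overlapped without berberine and stood apart with it, with log2 differences of 1.06 and 1.07 under berberine (DESeq2 adjusted p = 0.00231 and 0.00491) and 0.09 and 0.32 without. Of the windows of Hspa8 32.0% also occur in other annotated genes. Entpd8, a nucleotidase of the bile canaliculus, and Suds3, of the Sin3 corepressor complex, were chosen after their values were seen. Entpd8 had 25.1, 19.8, 26.3 and 29.95 FPKM in the libraries labelled KD, against 11.9, 15.8, 13.7 and 23.7 FPKM in NC, and 31.5, 29.7, 23.6 and 26.9 FPKM in the libraries labelled KD with berberine, against 17.4, 12.01, 17.3 and 14.7 FPKM in NC with berberine. Suds3 had 4.72, 6.69, 5.38 and 3.55 FPKM in the libraries labelled KD, against 7.54, 8.42, 6.58 and 9.17 FPKM in NC, and 5.97, 7.35, 5.78 and 5.89 FPKM in the libraries labelled KD with berberine, against 8.602, 8.45, 7.32 and 6.91 FPKM in NC with berberine. Entpd8 was higher and Suds3 lower in both comparisons, with log2 differences under berberine of 0.81 and -0.39.

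The test of whether the label difference itself changed with berberine counted 711 genes (6.56%), and edgeR called 0 and DESeq2 10 at an adjusted p under 0.05. Of 30 acute phase genes, a list picked here after its values were seen, it counted 18. Under berberine 0 of them were higher and 4 lower, with a median log2 difference of -0.68. Their mean log2 level relative to NC was 2.63 in the second NC library with berberine, against 0.08, 0.45 and 0.29 in the other NC libraries with berberine. Among named genes of at least 5 FPKM in 1 group C1d had the smallest p, with 7.59, 4.09, 3.17 and 3.05 FPKM in the libraries labelled KD with berberine, against 3.18, 2.86, 3.32 and 3.698 FPKM in NC with berberine. Its label difference was -1.84 without berberine and 0.39 with it, an interaction of 2.23 on the log2 scale (unadjusted p = 0.000232). Lsm14b had 8.81, 9.31, 8.23 and 8.96 FPKM in the libraries labelled KD with berberine, against 10.03, 5.36, 4.07 and 4.91 FPKM in NC with berberine (interaction 1.79, unadjusted p = 0.000814). Derl2, of the channel that exports misfolded ER proteins, had label differences of 0.54 without and -0.88 with berberine (interaction -1.41, unadjusted p = 0.000742). Zfyve21 gave 0.83 and -1.01 (interaction unadjusted p = 0.000918), Lpl, the lipoprotein lipase, gave 0.43 and -1.06 (unadjusted p = 0.000965), and Nectin1, an adhesion protein, gave -0.54 and 0.40 (unadjusted p = 0.00136). The adjusted p was 0.756 for these 6 genes by edgeR. Among genes below 5 FPKM the interferon-related genes Irf5 and Oas1g, named after their values were seen, had interactions of -2.17 and -2.02 (DESeq2 adjusted p = 0.00941 for both). Irf5, an interferon regulatory factor of myeloid cells, had 2.02, 1.07, 1.62 and 1.602 FPKM in the libraries labelled KD with berberine, against 1.61, 3.005, 2.05 and 4.09 FPKM in NC with berberine, and 1.602, 2.03, 3.897 and 1.97 FPKM in the libraries labelled KD without it, against 0.808, 0.934, 0.984 and 1.26 FPKM in NC. Oas1g had 0.733, 0.749, 0.911 and 0.709 FPKM in the libraries labelled KD with berberine, against 0.826, 0.707, 0.774 and 1.07 FPKM in NC with berberine. For both the label difference was above 0 without berberine and below 0 with it, at -0.82 and -0.17 under berberine.

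**Figure D5:**
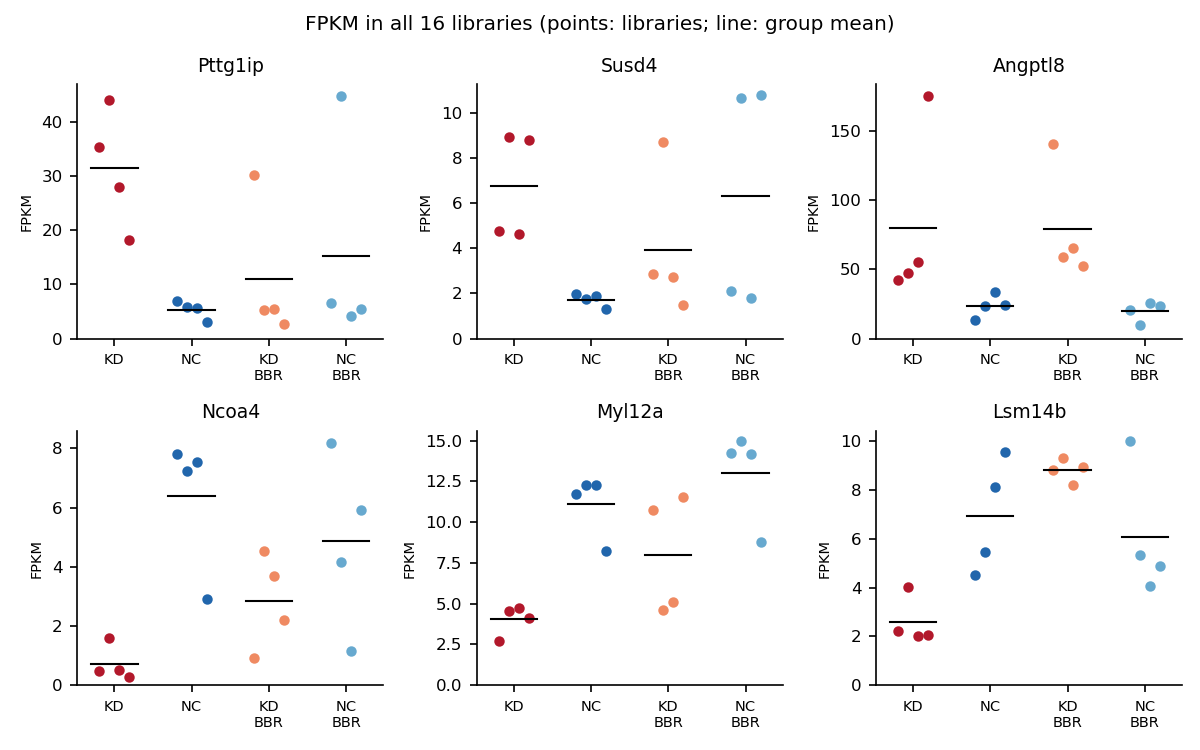
FPKM of 6 genes in all 16 libraries (y axis from 0), in the order KD, NC, KD with berberine and NC with berberine, with a point per library and a line at the group mean. Angptl8 is higher in KD both without and with berberine, and Lsm14b is lowest in the 4 KD libraries without berberine. With berberine Pttg1ip is high in 1 KD and 1 NC library, and Susd4 in 1 KD and 2 NC libraries.

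Across all genes the higher and lower counts differed with expression level. In the lowest of 5 equal bins by mean FPKM 8.20% of genes were higher and 3.64% lower, and in the highest bin 8.44% were higher and 10.3% lower. The median log2 difference was 0.10 in the lowest bin and -0.06 in the highest, and 51.9% of all genes had a difference above 0. Between 6.57% and 10.5% of genes were higher on each nuclear chromosome, against 19 of 37 mitochondrial genes. In the pathway annotation that the authors deposited with the table, 273 pathways held 15 to 200 tested genes, and the median pathway had 6.82% of them lower. Those with the largest shares were butanoate metabolism with 10 of 19 genes lower, propanoate metabolism with 12 of 28, and degradation of valine, leucine and isoleucine with 18 of 45. Without KD 3 these counts were 3, 3 and 8, and without KD 4 they were 5, 2 and 10. These pathways share members, were picked after their values were seen and were not tested.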

How the data were processed

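The authors deposited 1 table with a count and an FPKM per gene and library, and the submitters' processing notes name cutadapt 1.9, HISAT2 2.0.4, StringTie 1.3.4d, edgeR, DESeq2 and build mm10 without giving their roles. Libraries were made with a dUTP strand-marking kit and read as paired ends of 150 bases, per the labels' protocols; the counter and its use of strand are not given in the sources used here. The deposited counts were whole numbers, but small ones fell mostly on 4 (760 to 1230 genes per library with a count of 4, against 144 to 184 with 5), and the deposited FPKM values are not corrected for composition. No columns of the table were identical (0 pairs), and 99.5% of gene IDs occur in the GENCODE annotation.

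Genes with at least 1 FPKM in at least 4 of 16 libraries were tested with edgeR 4.0.16 in R 4.3.3 (TMM scaling, quasi-likelihood, a mean per group fitted to all 16 libraries, two-sided, Benjamini-Hochberg over 10846 genes). DESeq2 1.42.0, limma 3.58.1 on log2(FPKM + 1) or log2(FPKM + 0.1) and voom with library weights were alternatives, and the procedure was tested on simulated data. In 50 genes changed 2-fold in the simulated KD minus NC comparison of 10846 genes edgeR called 19, and in 50 changed 8-fold it called 44. It made 3 false calls among the unchanged genes. No simulated library was made to stand apart as KD 4 does, so these rates need not hold for the data themselves. The exact permutation tests were two-sided. The edgeR p-values rest on a spread per gene estimated over all 16 libraries, those with berberine included, and taken as the same in every group. They do not measure the spread among the 8 mice compared alone, and a fit to those 8 libraries counted 945 genes, against 1603. Each library is read as 1 mouse from the numbered titles. The genes and the 66 lists (1640 symbols, of which 6 were unmatched) were chosen with earlier results of these data known. Genes named were the Akr1b family, those of smallest p in each direction with at least 5 FPKM and no overlap, those of largest fold, up to 4 of smallest p in each list and up to 6 of smallest interaction p, and only some of these 197 genes are printed. Shared sequence was searched in transcript windows of 100 bases every 20 bases, in Python 3.11.15. Of the 92 genes printed with values, 27 overlap another gene on the other strand and 6 on the same strand. Besides those mentioned beside their values, these are Irf5, Irf7, Hc, Bcl3, Prtn3, Gstt3, G6pdx, Aldh2, Rpl35, Psmd3, Becn1, Hnrnpd, Eif5b, Krtcap2, Derl2, Alkbh2, Phospho1, Entpd8, Snhg3, Hspd1, Txndc5, Hspa8 and AW146154, whose reads may be shared.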

Additional observations from a re-analysis of the deposited data

Results flagged for a closer look

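In each group of 4 libraries the gap between the highest or lowest library and its nearest neighbour was divided by the range of the group, and the groups in which this exceeded the 95% critical value of Dixon are given here. Of 185 groups looked at, over 92 genes and the mitochondrial share, 23 exceeded it. In groups chosen without regard to their values chance gives about 1 in 20, but these genes were chosen for their p, their fold or after their values were seen (4632415L05Rik for 1 KD library that stood apart), so that rate does not apply to them.

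KD 3 was the high library for 6 of the genes, with 23.7 FPKM for Bcl3, 20.2 FPKM for Gsdmd, 22.1 FPKM for Prtn3, 1199 FPKM for Orm2, 12.1 FPKM for Saa3 and 23.4 FPKM for Edem2. KD 4 was low for Hnrnpd at 2.48 FPKM and high for Angptl8 at 175 FPKM, and its mitochondrially encoded genes took 35.4% of counts. KD 2 was high for Lsm14b at 4.00 FPKM and for Ncoa4 at 1.599 FPKM, both nearer to NC than the other KD libraries. KD 1 was high for 4632415L05Rik at 0.795 FPKM.

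NC 4 stood apart most often among the controls. It was high for Orm2 at 12.1 FPKM, Actb at 99.4 FPKM, Krtcap2 at 28.5 FPKM, Uqcrq at 298 FPKM, Fkbp11 at 4.74 FPKM and 4632415L05Rik at 1.201 FPKM, and low for Ncoa4 at 2.92 FPKM and Myl12a at 8.23 FPKM. NC 2 was high for Fcer1g at 9.18 FPKM, Idh2 at 34.9 FPKM and Dlat at 9.04 FPKM. The causes were not tested.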

How the results depend on the processing

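The count of genes at an adjusted p under 0.05 was 0 by edgeR, 105 by DESeq2, 4 by voom with library weights (Oas1g, C1d, Pacsin2 and Zfp281, named after their values were seen), 1 without KD 3 and KD 4, and 0 to 609 when 1 library was left out. At an unadjusted p under 0.05 the count of 1603 genes became 2558 with no filter on FPKM, 916 with a filter at 5 FPKM, 945 in a fit to the 8 libraries compared, 394 without KD 3 and KD 4 and 1025 to 2964 when 1 library was left out. The count of 903 higher genes became 402 by limma on log2(FPKM + 1), 389 with 0.1 added, 1463 with no filter, 581 at 5 FPKM, 184 without KD 3 and KD 4 and 584 to 1554 with 1 library left out. The count of 700 lower genes became 1300 and 1311 by limma, 1310 by voom, 1095 with no filter, 335 at 5 FPKM, 343 in the fit to 8 libraries, 210 without KD 3 and KD 4 and 436 to 1410 with 1 library left out. Without mitochondrially encoded genes edgeR counted 982 higher and 636 lower. Groups that did not overlap in FPKM numbered 604 (110 higher and 494 lower), 313 at 5 FPKM (38 higher and 275 lower), and in TMM-scaled values 256 were higher and 273 lower. DESeq2 called 5 genes for the label under berberine and 10 for the interaction, where edgeR called 0 to 1 with 1 library left out. The count of 711 interaction genes became 517 to 1538. The Akr1b10 difference in means, KD minus NC, was 0.132 FPKM and ran from 0.0213 to 0.191. The balance of higher and lower genes did turn: 903 and 700 by edgeR became 402 and 1300 by limma, 1091 and 1310 by voom, and 184 and 210 without KD 3 and KD 4, with a median over all genes of 0.02, -0.08, 0.00069 and 0.0024. The sign of the Akr1b10 difference held in all of its alternatives. For the 197 genes named by rule 160 values under an alternative passed an adjusted p of 0.05 and 3726 did not, and of the list medians 41 moved by more than the spread of the KD libraries and 1276 did not. KD 3 and KD 4 are part of that spread and widen it, so the 1276 are no measure of stability. The acute phase median went from 1.19 to 0.36 without KD 3, where the KD standard deviation was 1.33. For mitochondrially encoded genes it went from 0.78 to 0.10 without KD 4, where the standard deviation was 0.93. The causes were not tested beyond what fewer libraries or genes in a fit account for. Total counts were at least 50028526 in each of the 8 libraries, and precision was lowest for genes near 1 FPKM.

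With the replicate number as a block edgeR counted 1622 genes (813 higher and 809 lower) and called 0, with 504 genes counted for the label under berberine and 672 for the interaction. Same-numbered KD and NC libraries had correlations of their deviations of -0.02 to 0.16 (4 pairs), other-numbered ones -0.23 to 0.16 (12 pairs), and 1 of 4 KD libraries correlated best with its own number, so the numbers were not read as pairing the mice.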

Other observations

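Some genes sat near their NC level in part of the KD libraries and far below it in the others, and the values here were picked after they were seen. Pacsin2, which bends membranes in endocytosis, had 0.463, 6.58, 0.269 and 5.57 FPKM in the libraries labelled KD, against 6.95, 8.05, 6.86 and 6.57 FPKM in NC, so KD 1 and KD 3 were low while KD 2 and KD 4 were close to the NC range. Zfp281, a zinc-finger transcription factor, had 0.343, 2.21, 0.728 and 0.116 FPKM in the libraries labelled KD, against 2.48, 2.53, 2.44 and 2.599 FPKM in NC, and KD 2 alone was close to NC. 4632415L05Rik had 0.795, 0.0259, 0.0394 and 0.0301 FPKM in the libraries labelled KD, against 0.9004, 0.879, 0.8895 and 1.201 FPKM in NC, with KD 1 close to NC and the other KD libraries near 0. AW146154 had 0.02601, 0.0252, 0.785 and 1.23 FPKM in the libraries labelled KD, against 0.62997, 0.824, 0.998 and 1.004 FPKM in NC, and here KD 1 and KD 2 were near 0. The libraries at the low level differed from gene to gene. In the libraries labelled KD with berberine none of the 4 genes was at the low level, with 7.32, 8.69, 8.46 and 6.87 FPKM for Pacsin2 and 2.96, 2.99, 2.24 and 2.29 FPKM for Zfp281, against 7.02, 4.92, 7.49 and 8.25 FPKM and 2.38, 2.43, 3.36 and 3.13 FPKM in NC with berberine. By edgeR with all libraries the log2 differences without berberine were -0.94 (SE 0.70) for Pacsin2, -1.496 (SE 0.54) for Zfp281, -2.05 (SE 0.80) for 4632415L05Rik and -0.52 (SE 0.82) for AW146154. With all libraries edgeR called 0 of these 4, while voom with library weights gave adjusted p-values of 0.0352 for Pacsin2 and 0.0448 for Zfp281.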
